A study of Mus musculus with 8 samples.

Results

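The 9 genes described here are the retinoic acid receptors Rara, Rarb and Rarg, the retinoid X receptors Rxra, Rxrb and Rxrg, the cellular retinoic acid-binding proteins Crabp1 and Crabp2, and Stra8, a gene that retinoic acid switches on in germ cells. The genes were chosen by name, and all probe sets were taken that are annotated to one of these symbols on the Affymetrix mouse array MG_U74Av2. Of the 9 genes, 8 had a probe set, and Rarb had none among the annotated probe sets used here. Rxra had 2 probe sets, which gave 9 probe sets of 12488 on the array, and the array named 8251 genes in all. The 8 arrays each held total RNA of mouse testis, with 2 arrays for each of 4 genotypes. Double knockout mice, Ku86(-/-) with G3-Terc(-/-), lacked both Ku86 and Terc, and G3 marks the third generation of mice bred without Terc. Ku86 knockout mice were Ku86(-/-) and Terc(+/+). Terc knockout mice were Ku86(+/+) and G3-Terc(-/-). Wild type mice were Ku86(+/+) and Terc(+/+). Ku86, the product of Xrcc5, joins broken DNA ends, and Terc is the RNA template of telomerase. The labels used here state neither age nor strain. The scanner records describe the samples as germ cells, whereas the labels give testis, and they record that 3 mice were pooled for replicate 1 of the double knockout. Nothing states that the other arrays of a genotype came from separate mice, so the p-values measure the spread between these arrays, which may be technical.

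Retinoic acid is made from vitamin A inside cells and is needed for spermatogenesis in the mouse. It binds the retinoic acid receptors, which sit on DNA as pairs with a retinoid X receptor, hold corepressors without the ligand and recruit coactivators with it. In the mouse testis, retinoic acid acts both on Sertoli cells, the somatic cells that support the germ line, and on spermatogonia, where it starts differentiation and entry into meiosis. The cellular retinoic acid-binding proteins carry the ligand in the cytoplasm, and Stra8 is required for the meiotic programme in mouse germ cells.

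The arrays were not equal in quality. The deposited signals had been scaled to a like trimmed mean on every array, 200.13 to 200.16 once 2% of probe sets were trimmed at either end. Their median signal was 60.45 and 70.5 on the double knockout arrays, 60.4 and 67.3 on the Ku86 knockout arrays, 63.8 and 73.0 on the Terc knockout arrays, and 49.65 and 59.3 on the wild type arrays. The lowest of these was wild type replicate 1, which was scanned alone on its day after a repeated hybridisation that the record ascribes to high background. Double knockout replicate 1 and Ku86 knockout replicate 1 shared an earlier scan day, and the other 5 arrays shared the day between. Each scan day had its own chip lot, and lot and day cannot be told apart. Xrcc5, the gene that encodes Ku86, went against its label: probe set 96063_at read 259 and 423 on the arrays labelled double knockout, 420 and 459 on those labelled Ku86 knockout, 71.2 and 11.1 on those labelled Terc knockout, and 46.3 and 75.6 on those labelled wild type. A second Xrcc5 probe set, 161686_i_at, read between 0.4 and 3.4 on the 8 arrays and gave no usable signal in any genotype. The position of 96063_at in the gene was not known here, so it could not be set against the deleted part. Every Ku86 direction below is that of the label. Testis germ-cell markers were present on every array: the 11 tested markers of elongating spermatids summed to a signal between 84492 and 103673, while none of the 3 epididymis markers on the array had enough signal to be tested.

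**Figure D1:**
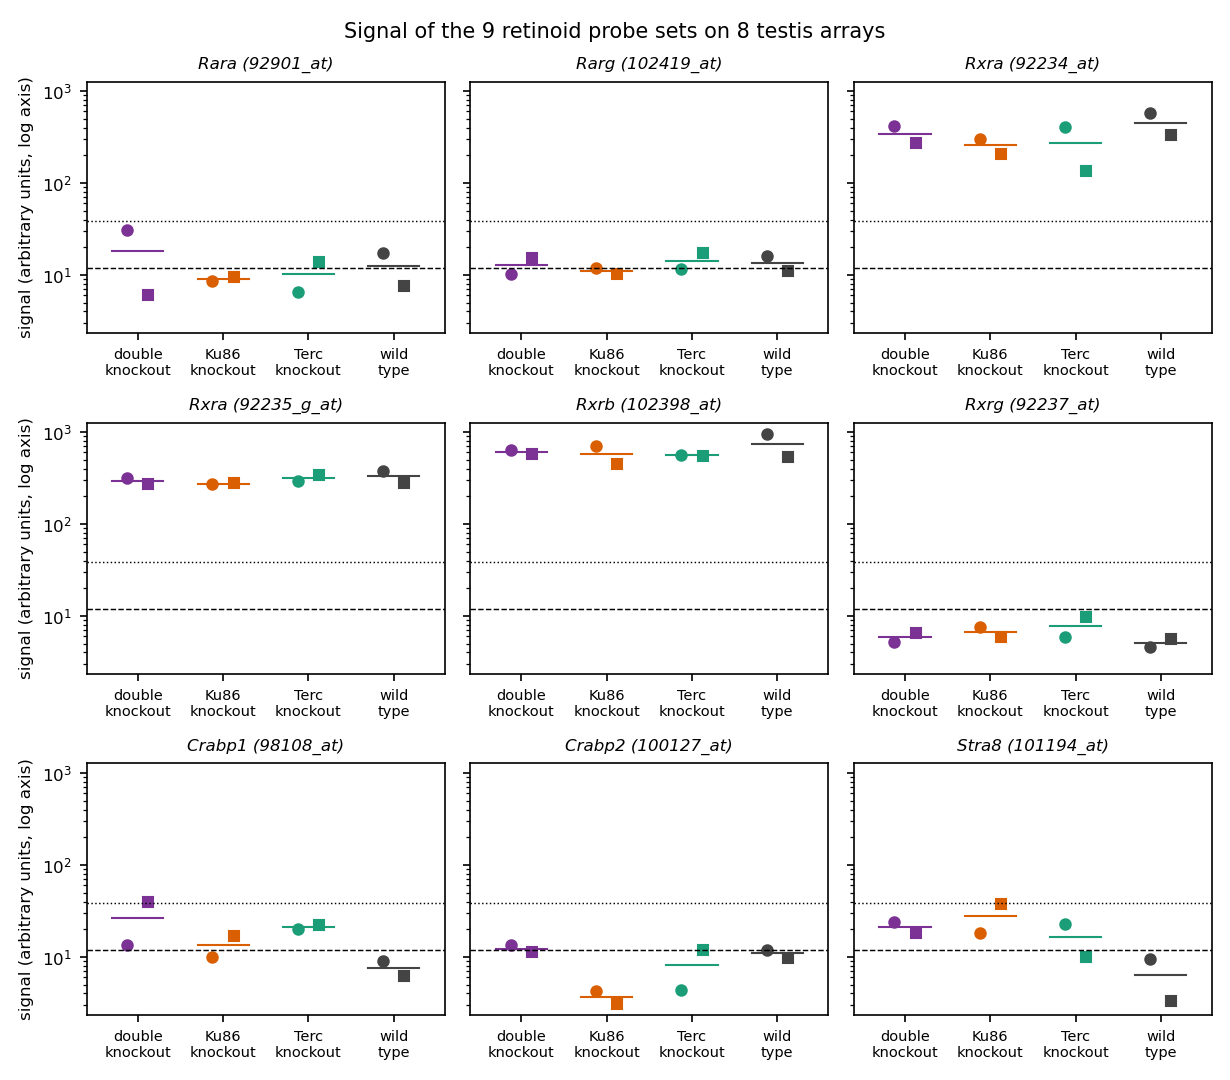
Signal on each of the 8 arrays for the 9 probe sets of the retinoid genes, on a log axis in the arbitrary units of the deposited table, with genotypes along the horizontal axis, circles for replicate 1, squares for replicate 2 and a short line at each genotype's mean. The dashed line is the floor of 11.8 and the dotted line the minimum mean signal of 38.1: Rxra and Rxrb lie above both on every array, and the other 6 probe sets lie mostly near or under the floor.

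Set against the floor and the filter on low signal, the retinoid genes of the testis RNA were either well above both or close to the floor. Rxrb and both Rxra probe sets read at least 135.8 on every array, and they passed the filter on low signal, which asked for a mean log2 signal over the 8 arrays of at least log2 of 38.1. The probe sets of Rara, Rarg, Rxrg, Crabp1, Crabp2 and Stra8 did not pass it, and their signal reached at most 39.5 on any array. Values under 11.8 were set to this floor before log2 was taken. Because each probe set has its own response, a signal near the floor does not rank a gene's RNA level below that of another gene. In whole-testis RNA, fewer cells of a type and less RNA per cell cannot be told apart.

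Among the retinoid X receptors, the shared partners of many nuclear receptors, Rxrb was above the filter in every genotype. In the mouse, Rxrb is expressed in Sertoli cells, and males without it are sterile. Its signal was 632.0 and 569.9 on the double knockout arrays, 696.7 and 445.9 on the Ku86 knockout arrays, 558.7 and 554.8 on the Terc knockout arrays, and 954.0 and 532.0 on the wild type arrays. The highest of the 8 values was wild type replicate 1 and the lowest Ku86 knockout replicate 2, and each knockout group overlapped the wild type group. The means were 601 ± 44 in double knockout testis, 571 ± 177 in Ku86 knockout testis, 557 ± 2.8 in Terc knockout testis and 743 ± 298 in wild type testis (SD, n = 2 arrays each). In the order of the means, each genotype overlapped the next, whereas the double knockout arrays both lay above the Terc knockout arrays. In that comparison 15.4% of all tested probe sets lay higher without overlap and 17% lower.

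On the log2 scale, Rxrb differed by -0.25 in double knockout, by -0.35 in Ku86 knockout and by -0.36 in Terc knockout testis, each against wild type and each with a standard error of 0.29. The limma adjusted p was 0.883, 0.826 and 0.737 in that order, over all 7282 probe sets tested. The 95% intervals ran from -0.88 to 0.39, from -0.99 to 0.28 and from -0.99 to 0.28, so the data do not separate no difference from a fall of nearly 1 log2 unit. These 3 comparisons share the wild type arrays. Without wild type replicate 1 the 3 differences were 0.17, 0.07 and 0.07, so the sign changed without that array. Rxrb read higher on replicate 1 than on replicate 2 in every genotype, so leaving out 1 wild type array also unbalances the replicate numbers. Among arrays numbered 1 the differences were -0.59, -0.45 and -0.77, and among those numbered 2 they were 0.10, -0.25 and 0.06. The difference between double knockout and Terc knockout testis was 0.11 ± 0.29 (SE), with an adjusted p of 0.990 in limma.

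Rxra, the retinoid X receptor with the broadest known role in mouse development, had 2 probe sets. The signal of 92234_at was 415.0 and 270.8 on the double knockout arrays, 304.5 and 207.2 on the Ku86 knockout arrays, 402.4 and 135.8 on the Terc knockout arrays, and 573.2 and 332.6 on the wild type arrays. Both Ku86 knockout arrays lay under both wild type arrays, and the other knockout groups overlapped wild type. Such a gap was not rare: in Ku86 knockout against wild type, 13.7% of all tested probe sets lay lower without overlap and 24.4% higher. No tested member lay apart from wild type in the other knockouts, where these shares were 13.2% lower and 23.2% higher in double knockout, and 12.2% lower and 25.5% higher in Terc knockout testis. The means were 343 ± 102 in double knockout, 256 ± 68.8 in Ku86 knockout, 269 ± 189 in Terc knockout and 453 ± 170 in wild type testis (SD, n = 2 each). In order of the means, the Ku86 knockout and Terc knockout arrays overlapped, as did Terc knockout with double knockout and double knockout with wild type.

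Probe set 92235_g_at of Rxra gave a narrower range. Its signal was 314.7 and 270.7 on the double knockout arrays, 270.4 and 279.0 on the Ku86 knockout arrays, 290.4 and 342.1 on the Terc knockout arrays, and 381.6 and 278.7 on the wild type arrays. The highest value was again wild type replicate 1, and every knockout group overlapped the wild type group. The highest array was 1.41 times the lowest for 92235_g_at and 4.22 times for 92234_at. The standard deviation within genotypes was 0.20 log2 units for 92235_g_at, 0.69 for 92234_at and 0.38 for Rxrb, against a median of 0.30 over all tested probe sets. The 2 Rxra probe sets did not track each other over the arrays: Pearson's r was 0.218 (exact permutation p = 0.617) and Spearman's rho 0.333 (exact permutation p = 0.428; n = 8, two-sided). Without Terc knockout replicate 2 and wild type replicate 1, the 2 arrays farthest from the median, r was 0.659. Whether the 2 probe sets read different transcripts was not tested.

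Against wild type, Rxra by 92234_at differed by -0.38 in double knockout, -0.80 in Ku86 knockout and -0.90 in Terc knockout testis on the log2 scale, with a standard error of 0.45. In limma the adjusted p of these was 0.886, 0.802 and 0.672. By 92235_g_at the same differences were -0.16, -0.25 and -0.05, with a standard error of 0.25 and adjusted p of 0.921, 0.834 and 0.965. The 95% intervals all included 0. Those by 92234_at were equally wide, and the one for Terc knockout ran from -1.89 to 0.09. Without wild type replicate 1 the differences by 92234_at were 0.01, -0.41 and -0.51, and by 92235_g_at 0.07, -0.02 and 0.18. The direction in double knockout testis changed for both Rxra probe sets without that array. By 92234_at, replicate 1 read higher than replicate 2 in every genotype, and each knockout lay under wild type at both numbers. The differences were -0.47, -0.91 and -0.51 among arrays numbered 1, and -0.30, -0.68 and -1.29 among those numbered 2. By 92235_g_at the same differences were -0.28, -0.50 and -0.39, and then -0.04, 0.0016 and 0.30. Those numbered 1 all use wild type replicate 1, and like-numbered arrays were not taken as pairs. The same-number values are therefore no separate check of direction. Within the scan day that held every genotype, with 2 arrays of Terc knockout and 1 of each other genotype, the differences were -0.30, -0.68 and -0.51 by 92234_at. Within that day they were -0.04, 0.0016 and 0.18 by 92235_g_at, and 0.10, -0.25 and 0.07 for Rxrb.

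**Figure D2:**
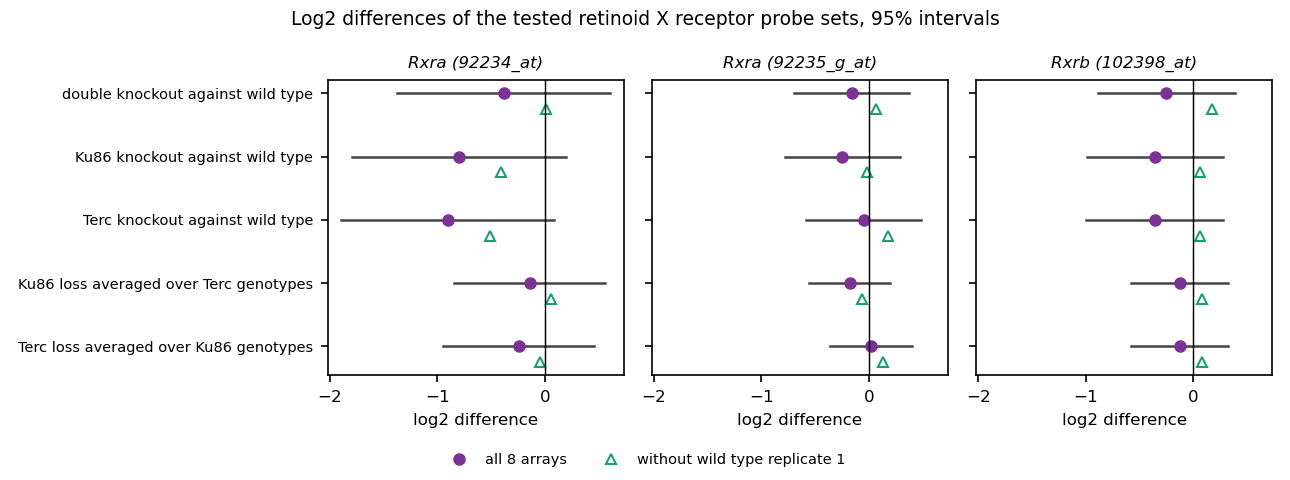
Log2 differences of the 3 tested retinoid X receptor probe sets in 5 comparisons, with circles for the fit to all 8 arrays, lines for its 95% intervals and triangles for the fit without wild type replicate 1. Every interval spans 0, and without that array the Rxrb differences against wild type are 0.17, 0.07 and 0.07.

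None of the 3 tested member probe sets was called at a limma adjusted p under 0.05 in any of the 8 comparisons. The same rule called 0.0275% of the tested probe sets in double knockout against wild type, 0.0412% in Ku86 knockout against wild type and 0.0275% in Terc knockout against wild type. It called 0% in double knockout against Terc knockout, 0% in double knockout against Ku86 knockout, 0% for the interaction, 0% for Ku86 loss averaged over the Terc genotypes and 0.0137% for Terc loss averaged over the Ku86 genotypes. At an unadjusted limma p under 0.05 the count of member probe sets was also 0 in every comparison, while 8.6%, 5.9% and 7.06% of all tested probe sets passed in double knockout, Ku86 knockout and Terc knockout against wild type. For the other comparisons, in the order above, those shares were 4.26%, 3.36%, 5.04%, 5.15% and 5.29%. With so few calls anywhere, the count of members called does not set them apart from other genes.

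The design also allows the question of whether Ku86 loss acted alike with and without Terc. For Rxra by 92234_at this interaction was 1.32 ± 0.64 log2 units (SE), with a limma p of 0.0633 and an adjusted p of 0.875. It was 0.46 ± 0.41 for Rxrb (adjusted p = 0.892 in limma) and 0.14 ± 0.35 for Rxra by 92235_g_at (adjusted p = 0.956 in limma). Over all tested probe sets the median interaction was -0.09. Averaged over the other genotype, Ku86 loss moved Rxrb by -0.12 ± 0.21 and Terc loss moved it by -0.12 ± 0.21 log2 units (SE), with limma adjusted p of 0.964 and 0.989. These averaged values were -0.14 ± 0.32 and -0.24 ± 0.32 for Rxra by 92234_at, and -0.18 ± 0.17 and 0.02 ± 0.17 for Rxra by 92235_g_at. The limma adjusted p of these 4 values lay between 0.937 and 0.997.

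Rxrg, the retinoid X receptor best known from muscle and brain, was under the floor on all 8 arrays. Its signal was 5.2 and 6.5 on the double knockout arrays, 7.6 and 5.9 on the Ku86 knockout arrays, 5.9 and 9.6 on the Terc knockout arrays, and 4.6 and 5.6 on the wild type arrays. No fold can be given for it.

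The retinoic acid receptors themselves read close to the floor. Rara, which in the mouse testis is needed in Sertoli cells, read 30.5 and 6.0 on the double knockout arrays, 8.6 and 9.4 on the Ku86 knockout arrays, 6.5 and 13.9 on the Terc knockout arrays, and 17.3 and 7.6 on the wild type arrays. The 3 values over the floor came from 3 different genotypes, and every knockout group overlapped wild type. Rarg, which acts in mouse spermatogonia, read 10.3 and 15.2 on the double knockout arrays, 11.8 and 10.1 on the Ku86 knockout arrays, 11.5 and 17.1 on the Terc knockout arrays, and 15.9 and 11 on the wild type arrays. It was over the floor on 3 arrays, and no genotype stood apart from wild type. Neither could be told from the floor at this signal, which is not evidence that the receptors were absent.

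Crabp1 and Stra8 were the members near the floor that had both wild type arrays under it and both arrays of some knockout over it. Rxrg too had both wild type arrays under the floor, so this was 2 of 3 such member probe sets. On the whole array, 21.6% of the 2180 probe sets with both wild type arrays at or under the floor did the same, so the pattern was common. Crabp1, which binds retinoic acid in the cytoplasm, read 13.5 and 39.5 on the double knockout arrays, 9.9 and 16.9 on the Ku86 knockout arrays, 20.2 and 22 on the Terc knockout arrays, and 9.0 and 6.2 on the wild type arrays. All 4 arrays without Terc were over the floor, as was 1 Ku86 knockout array. Against the floor of 11.8, double knockout testis was at least 1.96-fold higher and Terc knockout testis at least 1.79-fold higher than wild type, in the mean of 2 arrays. The double knockout bound rested on replicate 2: it was 3.35-fold from that array alone and 1.14-fold from replicate 1 alone. Over the Terc label, the 4 arrays of Terc-deficient testis averaged 23.8 ± 11.1 and the 4 others 10.5 ± 4.5 (SD), with ranges of 13.5 to 39.5 and 6.2 to 16.9 that overlap. The exact permutation test on log2 values gave p = 0.0571 (two-sided, 70 groupings), where the smallest p that 4 against 4 arrays allow is 0.0286. Over the Ku86 label the exact permutation p for Crabp1 was 0.800.

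Stra8, the retinoic acid-induced gene of mouse meiotic entry, read 23.9 and 18.0 on the double knockout arrays, 18.2 and 37.3 on the Ku86 knockout arrays, 22.9 and 10 on the Terc knockout arrays, and 9.5 and 3.3 on the wild type arrays. All 4 arrays labelled as lacking Ku86 were over the floor, and so was 1 Terc knockout array. Against the floor, double knockout testis was at least 1.76-fold higher and Ku86 knockout testis at least 2.21-fold higher than wild type, in the mean of 2 arrays. The Ku86 knockout bound was 3.16-fold from replicate 2 alone and 1.54-fold from replicate 1 alone. For double knockout it was 1.53-fold from replicate 2 alone and 2.03-fold from replicate 1 alone. Over the Ku86 label, the 4 arrays labelled as lacking Ku86 averaged 24.4 ± 9.1 and the 4 others 11.4 ± 8.2 (SD), with ranges of 18.0 to 37.3 and 3.3 to 22.9 that overlap. The exact permutation test gave p = 0.0857 (two-sided), and p = 1 over the Terc label. These were 2 of 18 such tests, for 9 probe sets and 2 labels, and none of the 18 was under 0.05. For Rxrg, Rara, Rarg and Crabp2 that outcome was fixed in advance, because values at the floor are tied. Rxrg was over the floor on 0 arrays, and Rara, Rarg and Crabp2 were each over it on 3.

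The median signal of the 2 wild type arrays was the lowest of the 4 genotypes, as given above, and its part in these low readings was not tested. In a limma fit to all 12422 probe sets other than controls, with no filter, Stra8 differed by 1.14 ± 0.47 log2 units (SE) in Ku86 knockout against wild type (adjusted p = 0.877). In the same limma fit Crabp1 differed by 0.97 ± 0.52 in double knockout against wild type (adjusted p = 0.823). Where both knockout arrays were over the floor, the fitted difference is the log2 of the bound above. All these differences, and the bounds, depend on where the floor was set. Over 21 alternative settings, which include other floors and single arrays left out, Crabp1 in double knockout testis ran from 0.03 to 1.74. Stra8 in Ku86 knockout testis ran from 0 to 2.22. Leaving out wild type replicate 1 gave 0.81 for Stra8 in double knockout, 1.14 in Ku86 knockout and 0.48 in Terc knockout testis, and 0.97, 0.26 and 0.84 for Crabp1. These were the same as with all 8 arrays, since both wild type arrays stood at the floor.

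Crabp2, the binding protein that passes retinoic acid to its receptor, read 13.4 and 11.2 on the double knockout arrays, 4.3 and 3.1 on the Ku86 knockout arrays, 4.4 and 12.0 on the Terc knockout arrays, and 12.0 and 9.8 on the wild type arrays. At most 1 array of any genotype was over the floor, so the low Ku86 knockout readings have no fold against wild type.

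The promoters of Stra8 and Crabp1 are shown because of the floor pattern above, though 21.6% of comparable probe sets shared it. Retinoic acid receptor pairs bind direct repeats of a hexamer related to AGGTCA, and exact copies of AGGTCA on either strand are in capitals. The RefSeq windows are the 250 bases before the gene start in build GRCm38.p6, both on the plus strand, Stra8 at chr6:34920698-34920947 and Crabp1 at chr9:54764498-54764747.
Stra8: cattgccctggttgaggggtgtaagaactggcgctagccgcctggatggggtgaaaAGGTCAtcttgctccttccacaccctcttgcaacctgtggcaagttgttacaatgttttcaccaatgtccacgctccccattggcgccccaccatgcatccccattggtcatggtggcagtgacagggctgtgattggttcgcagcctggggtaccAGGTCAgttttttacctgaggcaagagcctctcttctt
Crabp1: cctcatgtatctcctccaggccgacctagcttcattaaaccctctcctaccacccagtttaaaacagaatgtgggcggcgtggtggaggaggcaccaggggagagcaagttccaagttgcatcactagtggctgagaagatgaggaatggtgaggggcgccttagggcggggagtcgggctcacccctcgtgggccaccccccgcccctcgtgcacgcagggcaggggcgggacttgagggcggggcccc
The Stra8 window held 2 copies of AGGTCA, both on the plus strand, which begin 194 and 38 bases before the start. A window with at least 2 copies was found for 1.36% of the 32851 promoter windows of the same length, and 1 Rxra window also held 2. The Stra8 window also held 1 DR2 match, a direct repeat of related hexamers with a 2-base gap, which overlaps the copy farther from the start. DR2 matches were found in 0.344% of all windows. The Crabp1 window held no copy of AGGTCA and no DR1, DR2 or DR5 match. Among the 15 windows of 8 members, 4 held at least 1 copy of AGGTCA, in Rarg, Rxra, Rxrg and Stra8, and 14.0% of all windows did. Rarb, a known retinoic acid target, had 1 DR5 match, which 0.262% of all windows held. An Rxrg window had 1 DR1 match, which 0.487% of all windows held. A match describes the letters of the window, and binding was not measured.

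Genes listed under retinoic acid synthesis from vitamin A gave readable signal for 8 of 17. Whether each listed enzyme makes retinoic acid in testis was not tested. In double knockout against wild type 7 of the 8 were above 0, with a median of 0.25 log2 units, where 58.7% of all tested probe sets were above 0 with a median of 0.08. Aldh1a1, a retinaldehyde dehydrogenase, read 1409 and 1228 on the double knockout arrays, 588.5 and 921.7 on the Ku86 knockout arrays, 1007 and 1079 on the Terc knockout arrays, and 596.9 and 905.6 on the wild type arrays. Both double knockout arrays and both Terc knockout arrays lay above both wild type arrays. Of all tested probe sets, 23.2% lay higher without overlap in double knockout and 25.5% in Terc knockout testis. Its difference in double knockout testis was 0.84 ± 0.26 log2 units (SE; adjusted p = 0.397 in limma). Adh5, an alcohol dehydrogenase, read 291.1 and 262.1 on the double knockout arrays and 171.9 and 149.9 on the wild type arrays, a difference of 0.78 ± 0.24 (adjusted p = 0.398 in limma). Aldh1a7, close in sequence to Aldh1a1, differed by 0.85 ± 0.57 and Adh7 by 0.31 ± 0.32, with overlapping groups. None of the 8 was called in double knockout, Ku86 knockout or Terc knockout against wild type, and Aldh1a1 and Adh5 in double knockout testis were the only values at an unadjusted limma p under 0.05 by the brightest probe sets. A second Adh5 probe set, 98625_s_at, gave 0.86 ± 0.33 there (adjusted p = 0.497 in limma). Without wild type replicate 1, 4 of the 8 were above 0 in double knockout testis, with a median of 0.10, and Aldh1a1 differed by 0.54 and Adh5 by 0.88.

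Transport, storage and removal of retinoids were barely covered. Of 11 transport and storage genes only Dgat1, which esterifies retinol as well as diacylglycerol, was tested, at -0.41 ± 0.25 log2 units in double knockout against wild type. Of 6 removal genes only Dhrs3, which reduces retinaldehyde back to retinol, was tested, at 0.72 ± 0.56. Their limma adjusted p was 0.705 and 0.787.

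Receptor corepressors and coactivators, the proteins that retinoic acid receptors hold or recruit, were tested for 16 of 22 genes. In double knockout against wild type 8 lay above 0 and 8 below, with a median of 0.03, and none was called. Hdac2, a histone deacetylase, differed by 0.59 ± 0.30 and Sin3a, the corepressor scaffold, by 0.43 ± 0.22. The coactivator Ncoa2 differed by -0.55 ± 0.35 and the corepressor Nrip1 by 0.46 ± 0.56. Sin3a in Ku86 knockout against wild type, 0.49 ± 0.22, was the only one of these brightest probe sets at an unadjusted limma p under 0.05 in the comparisons with wild type (adjusted p = 0.802). A dimmer probe set of the corepressor Sin3b, 93790_at, singled out after its values were seen, read 73.1 and 48.0 on the double knockout arrays, 37.5 and 62.3 on the Ku86 knockout arrays, 35.3 and 33.6 on the Terc knockout arrays, and 133.7 and 118.1 on the wild type arrays. Every knockout array lay under both wild type arrays. Taken singly, 13.2%, 13.7% and 12.2% of all tested probe sets lay lower without overlap in double, Ku86 and Terc knockout testis. Its log2 differences were -1.08, -1.38 and -1.87, each with a standard error of 0.44, with unadjusted limma p of 0.0307, 0.0091 and 0.0012 and adjusted p of 0.514, 0.802 and 0.617. The brighter Sin3b probe set differed by -0.25 in double knockout and -0.23 in Terc knockout against wild type, so the 2 probe sets disagree in size in these comparisons.

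Other nuclear receptors, listed under pairing with a retinoid X receptor or competing for its sites, were tested for 14 of 25 genes. Whether each listed receptor does either was not tested. In double knockout against wild type 6 lay above 0 and 8 below, with a median of -0.05. Nr2f2, an orphan receptor of stromal cells, differed by 0.78 ± 0.50 and Nr0b1, a repressor of steroid synthesis, by 0.76 ± 0.39. The bile acid receptor Nr1h4 differed by -0.42 ± 0.57 and the thyroid hormone receptor Thrb by 0.42 ± 0.67. None of the 14 was called in any comparison with wild type, and none passed an unadjusted limma p under 0.05.

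Genes known to respond to retinoic acid were tested for 7 of 26 genes, and none was called. In double knockout against wild type 6 of the 7 lay above 0, with a median of 0.72 log2 units. All 7 lay above 0 in Ku86 knockout and in Terc knockout against wild type, with medians of 0.55 and 0.67. Over all tested probe sets 59.7% and 61.1% lay above 0 in these, with medians of 0.10 and 0.11. The 3 comparisons share the wild type arrays. Rarres2, the gene of the secreted protein chemerin, read 78.4 and 100 on the double knockout arrays, 85.0 and 66.2 on the Ku86 knockout arrays, 99.8 and 48.3 on the Terc knockout arrays, and 45.4 and 28.8 on the wild type arrays. Each knockout group lay above wild type without overlap. Taken singly, 23.2%, 24.4% and 25.5% of all tested probe sets did so in double, Ku86 and Terc knockout testis. The share that did so in all 3 was not computed. The difference in double knockout testis was 1.29 ± 0.47 (adjusted p = 0.484 in limma). At an unadjusted limma p under 0.05, 2 of the 7 genes passed in double knockout, 1 in Ku86 knockout and 1 in Terc knockout against wild type. Over all tested probe sets 8.6%, 5.9% and 7.06% passed in these comparisons, and these shares apply to the other lists too.

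Lamb1, a laminin chain of the basement membrane, read 78.5 and 99.6 on the double knockout arrays, 61.1 and 57.2 on the Ku86 knockout arrays, 70.9 and 106.0 on the Terc knockout arrays, and 33.3 and 49.3 on the wild type arrays. Again no knockout array fell within the wild type range, and the shares given for Rarres2 apply here too. The difference in double knockout testis was 1.13 ± 0.41 (adjusted p = 0.497 in limma). Kit, the stem cell factor receptor of differentiating spermatogonia, differed by 0.74 ± 0.46, and Dhrs3 is given above. Without wild type replicate 1 the list's medians were 0.55, 0.35 and 0.62 in double knockout, Ku86 knockout and Terc knockout testis.

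Meiotic entry genes, a list that includes Stra8, Dazl and Kit, were tested for 5 of 16 genes, and none was called in a comparison with wild type. In double knockout against wild type 3 of the 5 lay above 0, with a median of 0.20. Dazl, the germ-cell RNA-binding protein that prepares cells to answer retinoic acid, read 696.3 and 495.4 on the double knockout arrays, 330.0 and 443.9 on the Ku86 knockout arrays, 414.1 and 531.1 on the Terc knockout arrays, and 272.4 and 378.8 on the wild type arrays. Both double knockout arrays and both Terc knockout arrays exceeded both wild type arrays, as 23.2% and 25.5% of all tested probe sets did in these comparisons. The difference in double knockout testis was 0.87 ± 0.27 (adjusted p = 0.398 in limma), and Dazl was the 1 gene of the 5 at an unadjusted limma p under 0.05 there. The meiotic chromosome proteins Sycp1 and Stag3 differed by 0.20 ± 0.31 and -0.24 ± 0.20. Without wild type replicate 1, 2 of the 5 lay above 0, with a median of -0.18, and Dazl differed by 0.63.

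**Figure D3:**
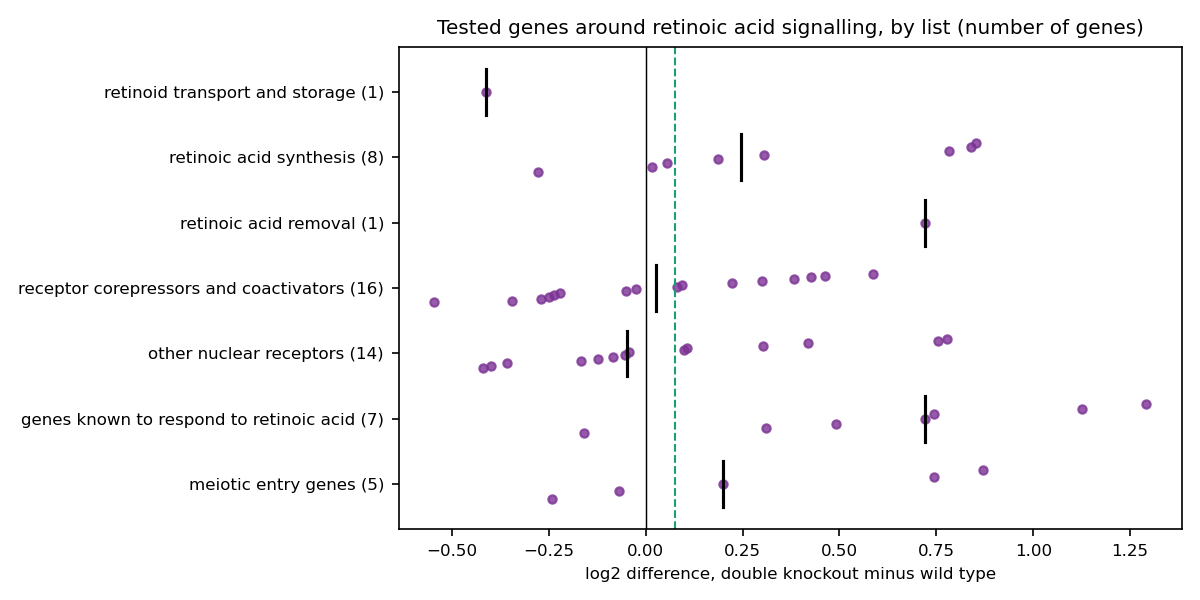
Log2 difference of double knockout minus wild type testis for each tested gene around retinoic acid signalling, 1 point a gene (its brightest tested probe set), grouped by list with the number of genes in brackets. Thick marks are list medians and the dashed line is the median of all tested probe sets, 0.08: the retinoic acid-responsive genes have the median of 0.72, and the coregulators spread to both sides of 0.

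Markers of several testis cell types had positive differences on the same arrays, though no marker was called. Of 17 tested Sertoli cell markers, 15 lay above 0 in double knockout against wild type, with a median of 0.90, and their summed signal was 5507 to 6450 on the double knockout arrays and 2972 to 2995 on the wild type arrays. Of 13 tested peritubular, vascular and matrix markers all 13 lay above 0, with a median of 0.93 and sums of 3093 to 3562 on the double knockout arrays and 1837 to 1997 on the wild type arrays. Of 5 tested spermatogonial markers 4 lay above 0, with a median of 0.74 and sums of 1229 to 1495 on the double knockout arrays and 877 to 938 on the wild type arrays. Dazl and Kit belong to that list too. Spermatocyte markers had a median of -0.01 and elongating spermatid markers a median of -0.09. In Ku86 knockout and in Terc knockout against wild type the medians were 0.44 and 0.56 for Sertoli cell markers, 0.44 and 0.53 for peritubular, vascular and matrix markers, and 0.25 and 0.55 for spermatogonial markers. Erythroid markers, 3 tested, had a median of -1.01 in double knockout, -0.76 in Ku86 knockout and -0.24 in Terc knockout testis. At an unadjusted limma p under 0.05 in double knockout against wild type, 2 of the 3 erythroid markers were lower. Higher at that threshold were 11 of the 17 Sertoli cell markers, 8 of the 13 peritubular, vascular and matrix markers and 2 of the 5 spermatogonial markers. Of the 11 elongating spermatid markers 1 was lower. Over all tested probe sets 8.6% passed in either direction. The part of these cell types in the values of Dazl, Kit, Lamb1, Rarres2, Aldh1a1 and the low readings of Stra8 and Crabp1 was not tested.

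The probe sets most like each tested member over the 8 arrays were found by Pearson's r on the log2 scale. For Rxra by 92234_at, among 6535 others, these were Zscan2 (r = 0.963, rho = 0.929), Rnf181 (r = 0.963, rho = 0.952) and Cep295nl (r = 0.956, rho = 0.976). For Rxra by 92235_g_at they were P2rx6 (r = 0.973, rho = 0.738), 1110008P14Rik (r = 0.963, rho = 0.857) and Tmem134 (r = 0.953, rho = 0.905). For Rxrb they were Saysd1 (r = 0.959), D030056L22Rik (r = 0.929) and Aym1 (r = 0.925), each with a rho of 0.833. Without the 2 arrays farthest from the member's median, r for Rxrb and Aym1 fell to 0.527 and that for Rxra by 92235_g_at and Tmem134 to 0.690, while the others stayed at or above 0.848. Each was picked as the highest of all those compared over 8 shared arrays, so the values are a description with no test.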

How the data were processed

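Total RNA from mouse testis was hybridised to 8 Affymetrix arrays, with 15 micrograms of cRNA each per the file headers. The authors deposited probe set intensities on a linear scale, already scaled. They came from software not given in the sources used here. Scanner records, deposited beside them, were read for scan day, lot and sample notes.

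Values were converted to log2 after those below the pooled 20th percentile (11.8) had been raised to it. From the 12488 probe sets, 66 controls and 5140 with a mean log2 under that of the pooled 40th percentile (38.1) were left out, and 7282 were tested. Taking the mean on the log2 rather than the linear scale was settled after both had been computed, and the linear mean (7556 tested) was kept as an added alternative. limma 3.58.1 in R 4.3.3 fitted 1 mean per genotype to all 8 arrays, with 8 contrasts, eBayes with a trend, and Benjamini-Hochberg adjustment over all tested probe sets. Calls were at adjusted p under 0.05, two-sided. The number of arrays limits precision. All 9 member probe sets, including those near the floor, were tested by exact permutation of the Ku86 or Terc label over log2 values. Probe sets were named from the platform annotation updated to RefSeq (GRCm38.p6): 10855 had 1 symbol, 396 several and 1237 none. All member probe sets are named, plus up to 4 tested genes of each pathway list by largest difference in double knockout testis, the 3 probe sets most like each tested member, and Xrcc5. Further probe sets of Adh5 and Sin3b were added outside this rule. A list gene was read by its brightest tested probe set, and 14 further tested probe sets of list genes were left out of the list counts. The fitting code was tested on simulated data. Alternatives covered normalization, floor, filter, variance trend, blocks, scan day and each array left out. The members and lists were chosen with earlier results of these data known.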

Additional observations from a re-analysis of the deposited data

How the results depend on the processing

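No member probe set was called in any of the 8 comparisons under any of the alternatives, which were quantile normalization, median centring, other floors, an offset in place of the floor, no filter, a stricter filter, a filter on linear means (added after the data were seen), no variance trend, only the genotypes compared, a replicate block, a scan day block and each array left out. The setting within 1 scan day, with 2 arrays of Terc knockout and 1 of each other genotype, was read as differences with no test. With all arrays, the lowest adjusted p of a tested member in limma was 0.672 over the 8 comparisons. Of the 15 tested member differences against wild type or averaged over a genotype, 12 took the other sign in some setting, most often without wild type replicate 1. The differences of Rxra by 92234_at in Ku86 knockout testis stayed between -1.19 and -0.41, and in Terc knockout testis between -1.68 and -0.12. Over 105 single values of members and named genes, 2069 of 2210 alternative values lay within 1 within-genotype SD of the reported one, 141 moved further, and none changed a call.

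The labels give each genotype experiments 1 and 2. The correlation of same-numbered deviations from the genotype means was between 0.01 and 0.25 over 6 genotype pairs, so the numbers were not taken as pairs. With the replicate block, the count of members called was 0 in every comparison. Counts over all tested probe sets ran from 0 to 10 in any comparison and setting. The causes of the moved values were not tested. With 2 arrays a genotype, and 6 of 9 member probe sets near the floor, differences in the receptors, binding proteins and Stra8 were mostly not detectable at this signal.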
